A study of Sus scrofa with 36 samples.

Results

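The comparison set the thyroid glands of 6 Large White pigs (LW_30) against those of 6 Creole pigs (CR_30), all slaughtered after the heat exposure. These 12 pigs were taken by their sample titles from a series of 36, and the other groups used below were LW_24 and CR_24, the same breeds slaughtered before the exposure, and F1_30, the cross of both breeds after it, with 6 pigs each. All were growing castrated male pigs, for which the labels give no age. The labels give the hot temperature as 30 °C, whereas the protocol text gives 32 °C for 5 days, and the groups keep their labelled names here. The pigs of a breed came from a few litters that the labels do not name, and per the study's methods each pen held pigs of a single breed. Breed therefore cannot be told apart from family or pen. The p-values measure the spread between pigs within the 6 groups of the series, with littermates and pen-mates taken as independent.

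Large White is a white European breed selected for lean growth, and Creole is a local breed of the Caribbean with more fat. The thyroid consists mostly of follicular cells, which load iodine onto thyroglobulin and release thyroid hormone from it, with calcitonin-producing C cells, a dense capillary bed, stroma and fat between the follicles. Thyroid hormone sets heat production, and its output is known to fall when pigs are kept hot. The question was which genes of the gland differed between the breeds once both had been through the heat, and whether the same genes had differed before it.

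Each pig was measured on 1 array with 1 dye, and values are deposited log2 intensities of 46097 probes. Arrays have no read depth, and their number limits the precision. Over the 12 arrays, between 74.0% and 80.3% of the spots were well above background, median intensities lay between 132.5 and 172 units against 26 to 27.5 for negative controls, and 0 spots were saturated. Correlations between arrays of different groups lay between 0.983 and 0.991. Thyroglobulin (TG) was brighter than 99.96% of the probes, and the markers of follicular cells had a mean level of 13.1 to 13.3 in LW_30 and 12.9 to 13.3 in CR_30, as the tissue label has it. Myosin heavy chains MYH2 and MYH4, markers of skeletal muscle, had median levels of 5.403 to 5.54 and were well above background on 4 and 2 of the 6 arrays of each group. All 11 measured skeletal muscle markers together had a higher mean level, of 7.68 to 7.94 in LW_30 and 7.73 to 8.02 in CR_30.

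At 30 °C, 1702 probes were called, meaning an adjusted p under 0.05 in limma with Benjamini-Hochberg adjustment over all probes, which is 3.69% of those tested. Of these, 942 (2.04% of the tested) were higher and 760 (1.65%) were lower in Large White. The differences were mostly moderate, with a median size of 0.52 on the log2 scale, but 257 reached 1 in size, of which 165 were lower and 92 higher in Large White. The 2 groups did not overlap in 610 of the called probes and in 804 (1.74%) of all probes. The called probes with a gene name stood for 689 of 11663 genes (5.91%), of which 407 (3.49%) were higher, 277 (2.38%) were lower and 5 had called probes of both signs. When only the 12 arrays were in the model, 687 probes were called, and 636 of those were among the 1702 with the same sign.

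The probes behind the largest differences are shown first, because several results turn on which stretch of a transcript they match. Probes are 60 bases long, and 30 bases of each are printed 5′ to 3′ as the scanner files give them. KIT, the receptor of stem cell factor, was read by 5 probes of 4 different sequences, and 2 that do not overlap show that the result did not rest on a single stretch:
KIT, probe A_72_P441559, bases 1 to 30: ttttactcctgacctggtttctaagtagtt
KIT, probe O299, bases 1 to 30: ttgagaagcagatttcggagagcaccaatc
The probe of DEFB1, a secreted antimicrobial peptide, is shown because the gene had the largest difference upward:
DEFB1, probe A_72_P232382, bases 1 to 30: cacagatatggctcagaagctgctcccttg
The pair of SELENOF, a selenoprotein of the endoplasmic reticulum, is shown because the probe with the largest downward difference among named genes shares 30 bases with a probe of the same gene that did not pass the test. Capitals mark the bases in which they differ, which are A34T and A56T, counted from 1 at the 5′ end of the first probe:
SELENOF, probe CUST_56_PI427286967, bases 31 to 60: tctAccattgatcagtctcttaccgAgagg
SELENOF, probe A_72_P562884, bases 1 to 30: tctTccattgatcagtctcttaccgTgagg

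Among the 24 genes with the largest differences, KIT had the smallest adjusted p in limma. KIT is needed by mast cells and melanocytes, and it is the gene of the dominant white coat locus of pigs, which Large White carries. Its levels in LW_30 had a lowest value of 13.2, a median of 13.8 and a highest of 13.98, and in CR_30 they were 11.3, 11.7 and 12.2. The groups did not overlap, and KIT was 3.92-fold higher in Large White, a log2 difference of 1.97 ± 0.22 (SE, n = 6 and 6, limma adjusted p = 3.23e-06). All 5 probes were called, with differences between 1.81 and 1.97. Within the 4 slides that held pigs of both groups the difference lay between 1.64 and 2.38. Before the heat it was 1.67 (adjusted p = 2.93e-05).

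The genes next to KIT in the order of the pig annotation were tested too. KDR, the main receptor of vascular endothelial growth factor on endothelium, was 0.75 ± 0.14 higher in Large White (adjusted p = 0.00198) on 1 of its 3 probes. Its levels were 11.71, 11.95 and 12.05 in LW_30 against 10.5, 11.3 and 11.5 in CR_30, with no overlap. The gene after it, LOC100525350, was 0.41 ± 0.11 higher (adjusted p = 0.0226). PDGFRA, on the other side of KIT, had a difference of -0.10 (adjusted p = 0.77).

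DEFB1 had levels of 9.24, 10.8 and 12.2 in LW_30 and 7.09, 7.32 and 8.49 in CR_30. The groups did not overlap, and the difference of 3.10 ± 0.39 was 8.57-fold (adjusted p = 1.36e-05). The probe printed above has the same sequence and had a difference of 2.92, so it is no separate reading. The same gap of 2.94 was present before the heat (adjusted p = 2.93e-05).

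**Figure D1:**
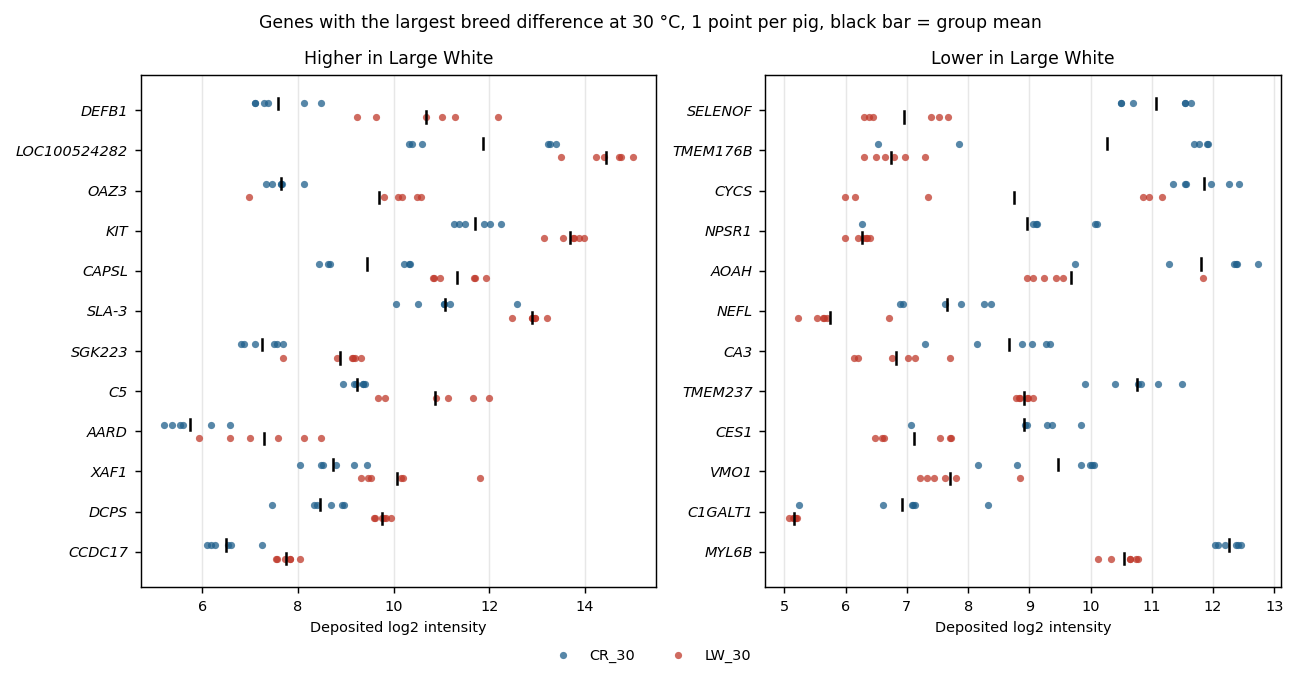
Deposited log2 intensity (x axis) in each LW_30 pig (red) and CR_30 pig (blue) for the 12 genes with the largest difference in each direction, each on its called probe with the largest difference, and black bars for group means. The groups do not overlap for 14 of the 24 genes, and in TMEM176B and CYCS the pigs of 1 breed fall into a bright and a dim set.

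Other genes higher in Large White spanned unlike roles. LOC100524282, a gene without a symbol of its own, had levels of 13.5, 14.6 and 15.0 in LW_30 against 10.3, 11.9 and 13.4 in CR_30, and the groups did not overlap. Its difference was 2.57 ± 0.69 (adjusted p = 0.0293), and the call was kept in 5 of 12 leave-outs. OAZ3, an antizyme of polyamine metabolism known from the testis, differed by 2.04 ± 0.48 (adjusted p = 0.0132) with 3 of 3 probes called, although 1 LW_30 pig, at 6.98, lay below every CR_30 pig. CAPSL, a calcium-binding protein of the calcyphosine family, differed by 1.89 ± 0.40 (adjusted p = 0.00584) without overlap. C5, a component of complement, differed by 1.63 ± 0.47 (adjusted p = 0.0447) on 3 of 3 probes, and its call was kept in 2 of the 12 fits that left out 1 pig.

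SLA-3, a class I gene of the pig major histocompatibility complex, differed by 1.82 ± 0.36 (adjusted p = 0.00374). Its 8 probes were all above 0 but ran from 0.19 to 1.82, and 2 were called, and the groups overlapped on the leading one. Class I genes are near copies of each other, so these probes may read several of them, and the difference is uncertain as one of SLA-3 itself. SGK223, also called PRAGMIN, differed by 1.63, AARD by 1.54, XAF1, an interferon-inducible partner of the apoptosis inhibitor XIAP, by 1.34, DCPS, the scavenger decapping enzyme, by 1.30 on 1 of 2 probes of opposite sign, and CCDC17 by 1.27. Among these, the call was kept in 12 of 12 leave-outs for SGK223, DCPS and CCDC17 and in 6 of 12 for AARD and for XAF1.

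The genes lower in Large White included several that were bright in Creole and dim in Large White. Among these, the leading probes of SELENOF, TMEM176B and NPSR1 were still well above background on every LW_30 array. The SELENOF probe shown above had levels of 6.30, 6.92 and 7.67 in LW_30 and 10.5, 11.1 and 11.6 in CR_30. The groups were far apart, at -4.12 ± 0.75 (17.4-fold, adjusted p = 0.0018), and the difference was -4.46 before the heat. The other 5 probes of SELENOF did not show it, with differences between -0.04 and 0.32, and the partner printed above read 13.4, 13.6 and 13.6 in LW_30 and 13.0, 13.3 and 13.5 in CR_30. The gene as a whole therefore cannot be called lower.

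TMEM176B, a membrane protein of antigen-presenting cells, had levels of 6.30, 6.72 and 7.30 in LW_30 and 6.53, 11.7 and 11.9 in CR_30. All Large White pigs were dim, whereas the Creole pigs were a mixture, and the difference was -3.52 ± 0.99 (adjusted p = 0.0377). The call was kept in 2 of 12 leave-outs. CYCS, the cytochrome c of the respiratory chain, had the reverse form on its leading probe, with 5.99, 9.10 and 11.2 in LW_30 and 11.4, 11.8 and 12.4 in CR_30, a difference of -3.11 ± 0.83 (adjusted p = 0.0286). Of its 14 probes, 3 were called and the others lay between -0.36 and 0.16.

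NPSR1, the receptor of neuropeptide S, had levels of 5.99, 6.31 and 6.40 in LW_30 against 6.27, 9.12 and 10.097 in CR_30. Only the lowest Creole pig reached the Large White range, and the difference was -2.69 ± 0.62 (adjusted p = 0.0116) with 2 of 2 probes called. AOAH, which removes acyl chains from bacterial lipopolysaccharide, differed by -2.13 ± 0.58 (adjusted p = 0.0334), and 1 LW_30 pig at 11.8 lay among the Creole values. The call of AOAH was kept in 3 of 12 leave-outs. NEFL, a neurofilament subunit, differed by -1.92 ± 0.44 (adjusted p = 0.0108) without overlap. Its probe was well above background on only 4 of the 6 LW_30 arrays, and before the heat the difference was -0.85 (limma adjusted p = 0.32). CA3, a carbonic anhydrase abundant in fat and muscle, was lower on 20 of 20 probes, of which 18 were called, and its largest difference was -1.84 ± 0.37 (adjusted p = 0.00432).

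The remaining genes of the largest 12 were TMEM237 (-1.84), a ciliary transition zone protein, the carboxylesterase CES1 (-1.80), VMO1 (-1.76), C1GALT1 (-1.76), which builds core O-glycans, and MYL6B (-1.71), a myosin light chain. The C1GALT1 probe was not well above background on any LW_30 array, so Creole was at least 3.12-fold higher, with measured means of 5.15 in LW_30 and 6.91 in CR_30. MYL6B levels were 10.13, 10.6 and 10.8 in LW_30 and 12.03, 12.3 and 12.5 in CR_30, so the groups were more than 1 apart on the log2 scale. The call was kept in 12 of 12 leave-outs for TMEM237, VMO1, C1GALT1 and MYL6B and in 4 of 12 for CES1. Over the 24 genes, 23 had the sign of the fit within each of the 4 slides with both breeds, the exception being AOAH.

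The largest difference of all was on a probe with no gene name, A_72_P788198, at -5.24 ± 1.32 (adjusted p = 0.0208), with levels of 5.26, 6.31 and 7.31 in LW_30 and 6.75, 12.4 and 13.1 in CR_30. Of the called probes, 693 had no gene name, and 17 of the 27 probes with a difference of at least 2 in size were among them.

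Whether the same difference was present before the heat was asked with LW_24 and CR_24, which are other pigs, but per the study's methods littermates of those at 30 °C, so the temperatures are not independent samples of families. There, 1580 probes were called (3.43%), 787 higher and 793 lower in Large White. Of the 1702 probes called at 30 °C, 1674 (98.4%) had the same sign at 24 °C, against 70.2% of all probes. Of them 699 were called at both temperatures, always with the same sign, which is 41.1% of the calls at 30 °C and 44.2% of those at 24 °C. The test of the change in the breed difference with heat called 0 probes in limma (lowest adjusted p = 1), and 1447 probes, or 3.14%, had an unadjusted p under 0.05. No gene was therefore shown to differ between breeds to another extent after the heat than before it. All 24 of the largest genes had the same sign at 24 °C, and 18 were called there.

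**Figure D2:**
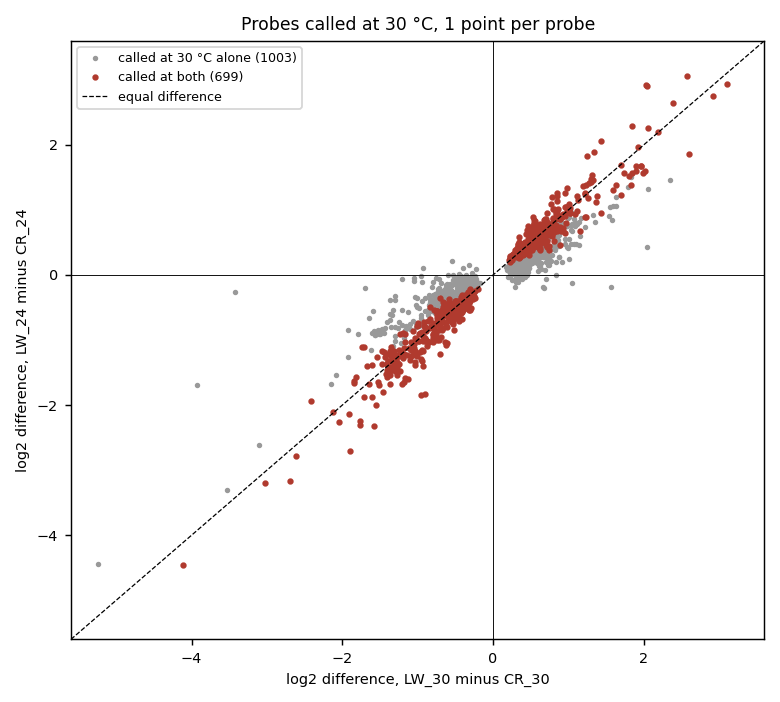
Log2 difference between Large White and Creole after the heat (x axis) and before it (y axis) for the 1702 probes called after the heat, 1 point per probe. The 699 probes called at both temperatures are red, and 28 probes have opposite signs.

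The F1_30 pigs gave a further reading of the same genes. Their mean lay between those of LW_30 and CR_30 for 1543 of the called probes (90.7%), against 42.5% of all probes. The choice of probes with separated ends favours this, so it is a description. The F1_30 mean was nearer to Creole for 989 called probes and nearer to Large White for 713. DEFB1 in F1_30 was 7.52, 7.74 and 8.49, near the Creole values and below every LW_30 pig. KIT in F1_30 was 11.7, 11.9 and 13.0, again below every LW_30 pig. The SELENOF probe in F1_30 had levels of 6.40, 10.7 and 10.9, with 4 pigs in the range of Creole and 2 in that of Large White. TMEM176B read 7.14, 7.71 and 11.8.

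**Figure D3:**
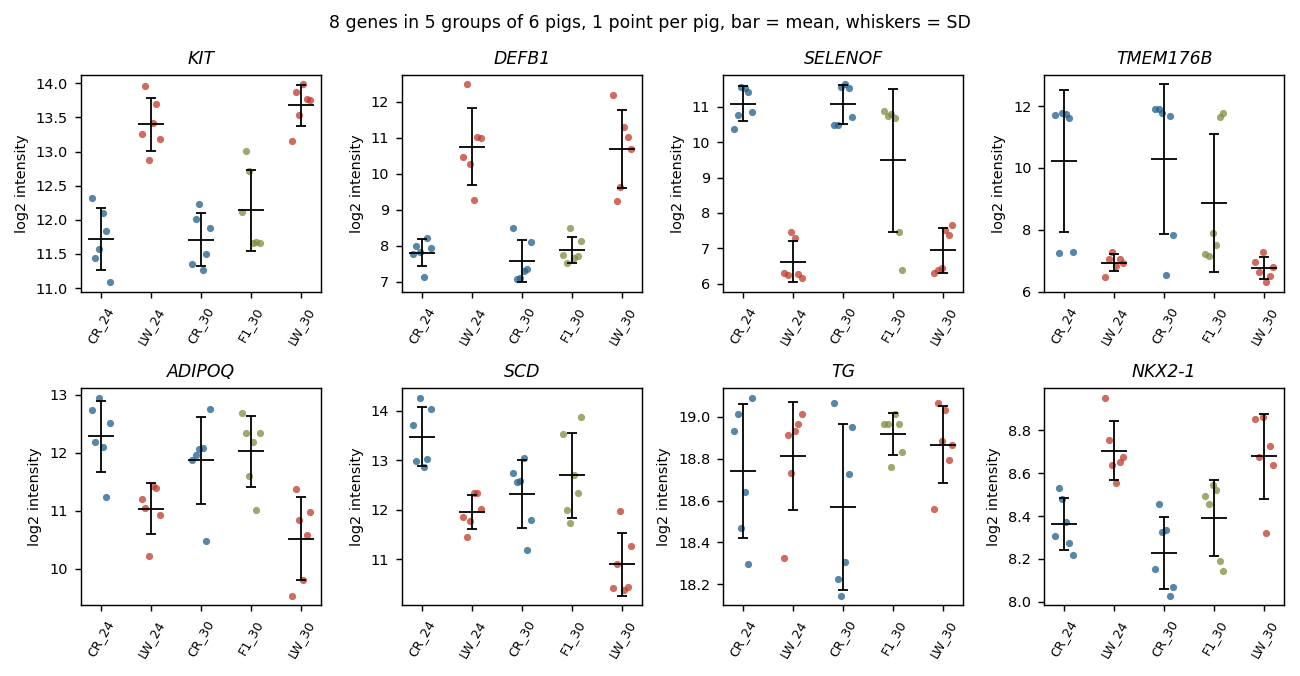
Deposited log2 intensity (y axis) of 8 genes in 5 groups of 6 pigs, with 1 point per pig, the mean as a bar and the SD as whiskers. LW_30 pigs lie above all CR_30 and F1_30 pigs for KIT and DEFB1, while for KIT 1 LW_24 pig at 12.9 lies below 1 F1_30 pig at 13.0, ADIPOQ and SCD are lower in Large White at both temperatures, and TG overlaps between all groups.

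Of 18 measured genes of hormone synthesis and release, the thyroid's own task, 1 (5.56%) was called, a share near the 5.91% of all genes. Their median difference was 0.03 against -0.0010 for all genes, where medians and signs of a list are taken on the brightest probe of each gene, and 50.3% of all genes were below 0 on it. TG had levels of 18.6, 18.9 and 19.1 in LW_30 and 18.1, 18.5 and 19.1 in CR_30, which overlap, with a difference of 0.30 ± 0.15 (adjusted p = 0.31). The highest value was 19.0675 in both groups. At this top end quantile normalization gives the arrays shared values, which limits what the overlap and the difference can show. None of the 10 TG probes was called, and their differences ran from -0.08 to 0.33. The iodide importer SLC5A5 was at 0.04 ± 0.36 (adjusted p = 0.98), the TSH receptor TSHR at 0.06 ± 0.14 (adjusted p = 0.90), the follicular transcription factor PAX8 at 0.06 ± 0.14 (adjusted p = 0.90) and the hormone-activating deiodinase DIO2 at -0.13 ± 0.43 (adjusted p = 0.93). That these tests were not passed does not show that the breeds were alike. DIO1 was not analysed here.

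The called gene was CTSB. CTSB, a protease that frees hormone from thyroglobulin, was lower in Large White by -0.37 ± 0.08 (adjusted p = 0.00735), with levels of 12.6, 12.6 and 12.8 against 12.9, 13.0 and 13.2 and no overlap. NKX2-1, a follicular marker that directs the follicular programme, was higher by 0.45 ± 0.10 (adjusted p = 0.00815) on 1 of 2 probes, and the groups overlapped. Of 15 genes of TSH receptor and cAMP signalling, 1 was called (6.67%, near the 5.91% of all genes). It was GNAS, the stimulatory G protein subunit, at 0.44 ± 0.11 (adjusted p = 0.0215), with 4 of 17 probes called but only 7 above 0. None of 9 thyroid hormone receptors and carriers was called.

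Chaperones and stress genes were a mixed set. Of 38 heat shock genes measured, 4 were higher and 1 was lower in Large White (13.2% called, beside 5.91% of all genes), and the list median was 0.0067. HSP90AA1, an inducible cytosolic chaperone, was higher by 0.57 ± 0.16 (adjusted p = 0.0406), with 9 of 9 probes above 0 and 2 called. Its co-chaperone AHSA1 (0.30) and the HSP70 partners DNAJA4 (0.39) and BAG3 (0.35) were higher too. DNAJA4 was called on 1 of 3 probes and BAG3 on 1 of 7. HSPA4 was lower by -0.65 ± 0.19 (adjusted p = 0.0439). HSPA8 (0.15 ± 0.12) and HSPH1 (0.17 ± 0.12) did not pass the test. The calls of HSP90AA1 and HSPA4 were each kept in 4 of 12 leave-outs and that of DNAJA4 in 5.

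The unfolded protein response, which supplies folding capacity to a gland that secretes large amounts of thyroglobulin, was measured by 24 genes. Of these, 20 were below 0, with a median of -0.28, and 2 (8.33%, beside 5.91% of all genes) passed the test. These were DNAJC3, a partner of BiP, at -0.38 ± 0.11 (adjusted p = 0.0400) and CANX, the calnexin lectin chaperone, at -0.34 ± 0.08 (adjusted p = 0.0200), with the call of DNAJC3 kept in 4 of 12 leave-outs and that of CANX in 10. The mean level of the list lay between 12.6 and 12.9 in LW_30 and between 12.7 and 13.2 in CR_30, which overlap. At an unadjusted p under 0.05 in limma there were 16 of the 24 genes, beside 17.5% of all genes. At 24 °C, 23 of the 24 were below 0, and the mean levels did not overlap. They were 12.7 to 13.002 in LW_24 and 13.025 to 13.4 in CR_24. The list as a set was not tested. Among 29 measured oxidant defence genes, NFE2L2, the factor that switches them on, was the only call (3.45%, beside 5.91% of all genes). It was higher by 0.35 ± 0.10 (adjusted p = 0.0328) on 1 of 3 probes, of which 2 were above 0. On the brightest probes 20 of the 29 genes were below 0, with a median of -0.08.

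**Figure D4:**
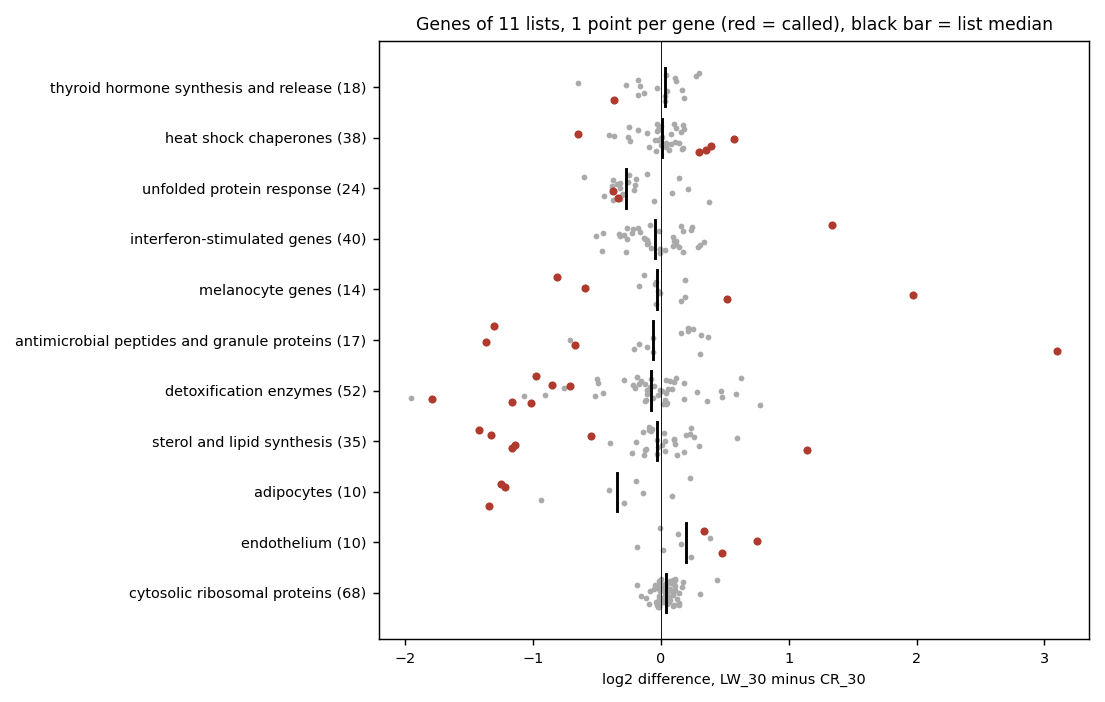
Log2 difference between LW_30 and CR_30 (x axis) of every measured gene of 11 lists, with the number of genes in brackets, called genes in red and list medians, on the brightest probe of each gene, as black bars. Adipocyte markers and unfolded protein response genes lie mostly below 0, while ribosomal protein genes lie close to it.

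Of 10 adipocyte markers, 3 were called, all lower in Large White, beside 2.38% of all genes called lower. On the brightest probes 8 were below 0, with a median of -0.35. ADIPOQ, the hormone adiponectin, had levels of 9.54, 10.7 and 11.4 in LW_30 and 10.5, 12.01 and 12.8 in CR_30, which overlap, with a difference of -1.35 ± 0.34 (adjusted p = 0.0204) and 9 of 10 probes called. PLIN1, the coat protein of the fat droplet, differed by -1.25 ± 0.26 (adjusted p = 0.0056), and LPL, the lipase that takes up circulating fat, by -1.22 ± 0.36 (adjusted p = 0.0462), the latter kept in 2 of 12 leave-outs. FABP4 (0.09) and PPARG (0.23) did not pass the test. The mean level of the whole list was 10.11, 10.4 and 10.8 in LW_30 and 10.4, 10.98 and 11.3 in CR_30. In whole glands, fewer fat cells and less RNA of these genes per cell cannot be told apart.

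Of 35 genes of sterol and lipid synthesis, 5 were lower and 1 was higher (17.1% called, beside 5.91% of all genes). SCD, which desaturates stearate, had levels of 10.4, 10.7 and 11.97 in LW_30 and 11.2, 12.6 and 13.1 in CR_30, with -1.42 ± 0.37 (adjusted p = 0.0251) and 10 of 11 probes called. ME1, a source of NADPH, differed by -1.33 ± 0.32 (adjusted p = 0.0136), DGAT2, which makes triglyceride, by -1.17 ± 0.32 (adjusted p = 0.0343), ELOVL6 by -1.14 and LPIN1 by -0.55. The median of the list was -0.03, with 19 of the 35 genes below 0. The part of fat cells in these differences was not tested.

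ACSL4, which activates arachidonic acid, went the other way at 1.15 ± 0.27 (adjusted p = 0.0131) without overlap. It was above 0 on 9 of 9 probes, of which 3 were called, but 2 probes stood at 1.097 and 1.15 and the other 7 between 0.04 and 0.41.

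Enzymes that handle drugs, steroids and oxidized lipids were called in 1 direction. Of 52 measured, 6 (11.5%) were called and all 6 were lower in Large White, beside 2.38% of all genes, with a list median of -0.08. Beside CES1 these were the aldo-keto reductases AKR1C4 (-1.17 ± 0.27, adjusted p = 0.011) and AKR1C1 (-1.02 ± 0.22, adjusted p = 0.00651), the glucuronosyltransferase UGT1A6 (-0.98 ± 0.22, adjusted p = 0.00986), FMO1 (-0.86) and EPHX2 (-0.71). UGT1A6 levels were 6.05, 6.59 and 6.95 in LW_30 and 7.17, 7.53 and 7.82 in CR_30 and did not overlap. EPHX2, a soluble epoxide hydrolase, was below 0 on 1 of its 4 probes only. Signals of AKR1C1, AKR1C4 and the neighbouring AKR1CL1 (-1.47) may be shared, since these genes are near copies.

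Immune genes gave single differences. Of 17 antimicrobial peptides and granule proteins, DEFB1 was higher and 3 were lower (23.5% called, beside 5.91% of all genes), namely lysozyme LYZ (-1.37 ± 0.33, adjusted p = 0.0141, 5 of 5 probes called), the protease inhibitor SLPI (-1.31 ± 0.30, adjusted p = 0.0121, 7 of 7 probes called) and the siderophore binder LCN2 (-0.68 ± 0.17, adjusted p = 0.0175). SLPI levels were 10.7, 11.7 and 12.3 in LW_30 and 12.6, 12.9 and 13.3 in CR_30, with no overlap. IL15, a growth factor of natural killer and memory T cells, was higher by 0.96 ± 0.23 (adjusted p = 0.0143), and CD247, the zeta chain of the T cell receptor, by 0.77 ± 0.18 (adjusted p = 0.0117). CD247 was the 1 called gene of 9 T cell markers (11.1%, beside 5.91% of all genes). Of these markers 6 were below 0 after the heat, with a median of -0.08, whereas before it 8 were above 0, with a median of 0.55.

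The 40 interferon-stimulated genes gave unlike counts at the 2 temperatures. After the heat 16 were above 0, with a median of -0.05 and XAF1 as the only call, whereas before the heat 40 of 40 were above 0, with a median of 0.30. The list's mean level was 9.52, 9.88 and 10.9 in LW_30, 9.53, 10.04 and 10.3 in CR_30, 9.95, 10.2 and 10.3 in LW_24, and 9.59, 9.72 and 9.95 in CR_24. Of these 4 groups, LW_30 had the widest range, and no gene of the list passed the test of the change with heat. Unlike counts were not particular to this list. Of 11 MHC class II genes, 11 were above 0 before the heat and 3 after it, and of 60 cell cycle genes 10 before and 37 after.

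The melanocyte and mast cell genes were of interest because both cell types depend on KIT. Of 14 melanocyte genes, 2 were higher and 2 were lower (28.6% called, beside 5.91% of all genes), with a median of -0.03. Beside KIT, EDNRB, the endothelin receptor also found on endothelium, was higher by 0.52 ± 0.11 (adjusted p = 0.00466), while MITF, their master regulator, was lower by -0.60 ± 0.14 (adjusted p = 0.0119) with 5 of 6 probes called, and SLC45A2, a melanosome transporter, by -0.81 ± 0.20 (adjusted p = 0.0178). DCT, a pigment enzyme, was at 0.16 ± 0.20 (adjusted p = 0.77). Of the 3 measured mast cell markers, KIT was higher, but HDC, which makes histamine, was lower by -0.89 ± 0.22 (adjusted p = 0.0192) and MS4A2, the beta chain of the IgE receptor, by -0.61 ± 0.14 (adjusted p = 0.0136). The mean level of 4 melanocyte markers, at 8.72 to 8.99 in LW_30 and 8.81 to 9.16 in CR_30, overlapped. That of the 3 mast cell markers, at 8.33 to 8.87 and 8.12 to 8.89, overlapped too, but it averages KIT with 2 markers of the opposite sign. The part of either cell type in the difference of KIT was not tested.

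Of 10 endothelial markers, 3 were called, all higher in Large White, beside 3.49% of all genes, and 8 were above 0 with a median of 0.19. Beside KDR, the junction protein CLDN5 (0.48 ± 0.12, adjusted p = 0.0212) and the receptor TIE1 (0.34 ± 0.10, adjusted p = 0.0451) were called, the latter kept in 4 of 12 leave-outs. VWF (-0.0068) and ENG (-0.19) did not pass the test. The mean level of the list was 11.7 to 11.99 in LW_30 and 11.3 to 11.8 in CR_30, and the part of endothelium in the difference of KDR was not tested. In the matrix and muscle lists, the laminin chain LAMC1 was higher by 0.57 and LAMB1 lower by -0.31, the secreted phosphoprotein SPP1 was higher by 0.34 on 1 of 7 probes with the other 6 below 0, and smooth muscle actin ACTA2 was higher by 0.43.

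In oxidative phosphorylation, ATP5G3, a subunit of the ATP synthase ring, was lower by -0.48 ± 0.08 (adjusted p = 0.000984) without overlap, and NDUFC1 was higher by 0.25, out of 58 nuclear genes (3.45% called, beside 5.91% of all genes). In the cell cycle, SPC25 (0.52) and CDK2 (0.33) were higher out of 60 (3.33% called), CDK2 on 1 of 7 probes with 4 of the 7 below 0. There were 0 calls among 68 cytosolic ribosomal protein genes, 37 proteasome genes, 13 mitochondrially encoded genes, 22 immediate early genes, 16 glucocorticoid-responsive genes and 11 genes of MHC class II, where at an unadjusted p under 0.05 in limma there were 7, 4, 1, 0, 2 and 0, beside 17.5% of all genes.

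Probes of the same gene were then set beside each other. Of the 684 genes called in 1 direction, 455 had a further probe of another sequence, which had the sign of the leading probe throughout in 336 (73.8%), and in 137 a further probe was called. Of 58 pairs of probes that share 30 bases or more without a mismatch, with at least 1 of the pair called, 57 had the same sign, and the median gap between their differences was 0.04. In 6 of these pairs the gap was at least 0.5, among them LUM with -1.18 against -0.08 over 35 shared bases and SLA-3 with 1.59 against 0.56 over 42. In the pair of unlike sign the 2 probes of RGP1, a partner of Rab6 exchange, had opposite signs, and another probe that overlaps one of them was lower still. They are shown in the stretch shared by the upper pair, and in that shared by the lower pair:
RGP1, probe A_72_P287794, bases 17 to 46: cagctgtagcattaacttatttattcagaa
RGP1, probe A_72_P494650, bases 1 to 30: cagctgtagcattaacttatttattcagaa
RGP1, probe A_72_P494650, bases 18 to 47: tatttattcagaataaattggcagctgcta
RGP1, probe A_72_P501524, bases 1 to 30: tatttattcagaataaattggcagctgcta
Probe A_72_P287794 differed by 0.27 ± 0.09 (adjusted p = 0.072), A_72_P494650 by -0.37 ± 0.09 (adjusted p = 0.0123) and A_72_P501524 by -0.94 ± 0.13 (adjusted p = 4.38e-05). At 24 °C the values were 0.29, -0.50 and -0.87, the same order.

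Pairs with 1 or 2 mismatches behaved alike in most cases too, 20 of 22 having the same sign. ACY1, an aminoacylase, is shown because its 2 probes share 56 bases with the single substitution G33A, counted from the 5′ end of the first, and the capital marks it:
ACY1, probe A_72_P232332, bases 20 to 49: agtggatggagacGcaagtgacatctactg
ACY1, probe O8130, bases 16 to 45: agtggatggagacAcaagtgacatctactg
The first read 11.4, 11.8 and 11.9 in LW_30 and 12.1, 12.4 and 12.8 in CR_30, a difference of -0.68 ± 0.12 (adjusted p = 0.00107). The second read 11.9, 12.1 and 12.2 in LW_30 and 11.97, 12.2 and 12.8 in CR_30, a difference of -0.19 ± 0.13 (adjusted p = 0.52). For ADIPOQ, a pair with the substitution T31G differed between breeds by nearly the same amount, -1.30 ± 0.33 and -1.27 ± 0.33:
ADIPOQ, probe A_72_P751372, bases 19 to 48: ttttccactgagTtaggggtgactacgctt
ADIPOQ, probe A_72_P752533, bases 1 to 30: ttttccactgagGtaggggtgactacgctt

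**Figure D5:**
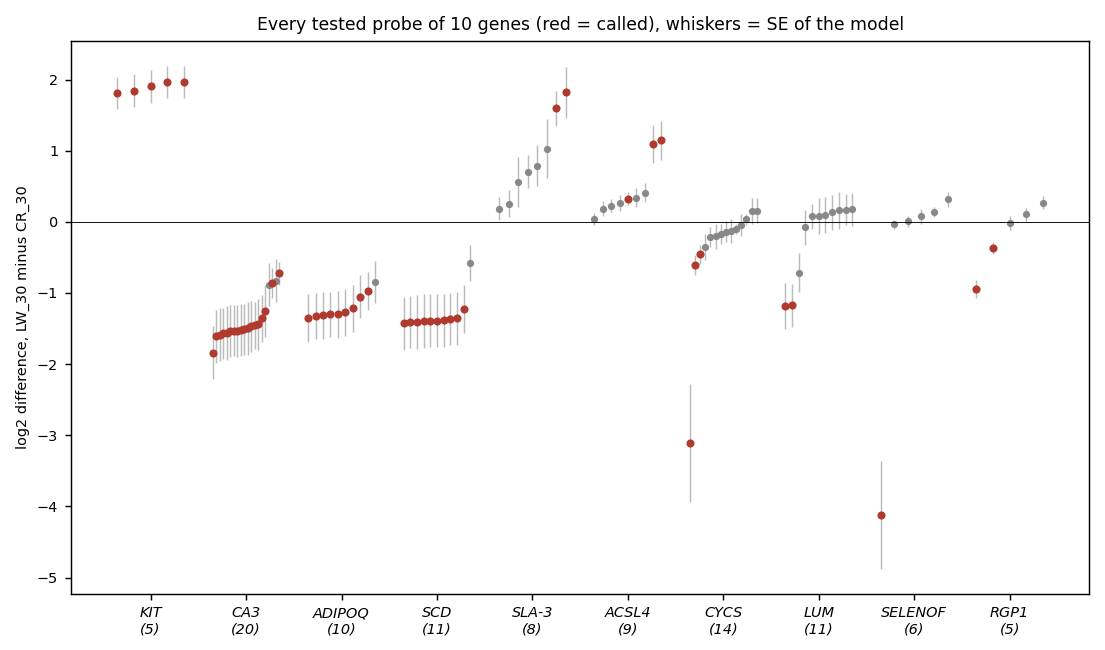
Log2 difference between LW_30 and CR_30 (y axis, whiskers are the SE of the model) for every tested probe of 10 genes, with the number of probes in brackets and called probes in red. The probes of KIT, CA3, ADIPOQ and SCD lie on 1 side of 0, whereas 1 probe of SELENOF and of CYCS and 2 of RGP1 stand apart from the rest of their gene. For LUM the 2 called probes, and an uncalled probe at -0.72, lie below the others.

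LUM, the matrix proteoglycan lumican, had the same form. Of its 11 probes 2 were called, at -1.18 and -1.17, and 7 lay between 0.08 and 0.18. The others were at -0.72, on a probe that overlaps each called one by 55 bases, and at -0.08. The 5 genes with called probes of both signs were ABCF1, ACER3, LAMP2, PRPS2 and PTGR1. LAMP2, a lysosomal membrane protein, was at -0.58 on 1 probe and 1.01 on another, and PTGR1, a prostaglandin reductase, at -1.12 and 0.29. For these genes no single direction can be given.

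Called genes were also placed in the order of genes in the pig annotation, which gave 10530 measured genes with a place. A called gene had a called neighbour in 13.7% of cases (89 of 648), and a gene that was not called in 11.6% (1147 of 9882). There were 42 runs of 2 or 3 called neighbours, and the called genes of 34 of them went 1 way. They included KIT, KDR and LOC100525350, the paraoxonases PON1 (-1.51) and PON3 (-1.71), the guanylate cyclase subunits GUCY1A3 (0.58) and GUCY1B3 (0.47), the gastrokines GKN1 (0.44) and GKN2 (1.11), and the ectonucleotidases ENPP1 (-0.80) and ENPP3 (-0.82). Of the pairs, PON1 and PON3 were -1.69 and -1.87 before the heat.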

How the data were processed

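Total RNA of whole thyroid glands was labelled with Cy3 and hybridised to Agilent pig arrays, 1 pig per array. Per the labels and the submitters' processing notes, images were read with Agilent Feature Extraction 10.10.1.1 and processed with limma. The deposited table holds log2 values of quantile-normalized intensity, and the authors subtracted no background, so that differences of dim probes are understated. Remaking these values from the deposited scanner intensity (median signal) gave a median absolute deviation of 0.00556 and a lowest correlation of 0.999998, which settles scale and direction. Of the values, 63 were missing.

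A model with the 6 group means of all 36 arrays was fitted in limma 3.58.1 (R 4.3.3, lmFit and eBayes), and LW_30 minus CR_30, LW_24 minus CR_24 and their difference were tested, each with Benjamini-Hochberg adjustment over 46097 probes. Errors are the SE of the model. A gene is given by its called probe with the largest difference, otherwise by its brightest probe, and list medians, signs and mean levels use the brightest probe throughout. Named were the 12 genes with the largest difference in each direction, a set of thyroid, heat and coat genes, and up to 4 called genes of each list. Other genes of the lists, and pairs of overlapping probes, were named after their values were seen. Names came from the scanner files and RefSeq gene tables (Sscrofa 11.1), which gave only names and gene order. The members and lists were chosen with earlier results of these data known. The study's mixed model with litter, pen and day of slaughter could not be run, because the labels do not give them. Scripts were tested on simulated data. Alternatives changed the arrays in the model, slide and position blocks, variance shrinkage, normalization, background correction and filters, and left out each pig.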

Additional observations from a re-analysis of the deposited data

Results flagged for a closer look

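Of 150 sets of 6 pigs examined for named genes, 13 had a pig far from the others of its group, where chance gives about 1 in 20. In LW_30, replicate 4 was low for OAZ3, at 6.98 with the nearest pig at 9.80, and high for XAF1, at 11.8 with the nearest at 10.2. Replicate 5 was low for SGK223, at 7.69 against 8.81, and for IL15, at 8.28 against 8.72, and high for VMO1, at 8.85 against 7.80. Replicate 6 was high for AOAH, at 11.8 against 9.55, and for NEFL, at 6.70 against 5.70. Replicate 3 was high for HSPA4, at 9.92 against 9.59.

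In CR_30, replicate 3 was low for NPSR1, at 6.27 against 9.05, for CES1, at 7.06 against 8.93, and for TSHR, at 8.93 against 9.26. Replicate 5 was low for PLIN1, at 8.90 against 9.71, and replicate 6 for NDUFC1, at 11.4 against 11.7. All values are deposited log2 intensities.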

How the results depend on the processing

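The count of 1702 probes at 30 °C became 687 when the model held only the 12 arrays compared. Under the other 9 planned settings it lay between 1159 (position on the slide as a block) and 1928 (slide as a random block), and between 1166 (without CR_30 replicate 1) and 1827 (without CR_30 replicate 3) when 1 pig was left out. The change of the breed difference with heat gave 0 calls under every setting run. None of the 67 called named genes reversed, but 32 lost the call with only the 12 arrays, 21 with the position block and between 6 and 23 when 1 pig was left out. Uncalled genes changed sign. PAX8 was -0.033 with slide as a fixed block, and with 1 pig left out it ran from -0.047 to 0.14, SLC5A5 from -0.15 to 0.26, DIO2 from -0.46 to 0.20 and TSHR from -0.011 to 0.12. The cause was not tested. No paired analysis was possible because the labels carry no replicate numbers or litters that pair the pigs, whereas slide, on which both breeds were hybridised, was fitted as a fixed (1561 probes) and a random block. Probes near background limit the size of a difference that can be read.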
